A study of Rattus norvegicus with 16 samples.

Results

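This account follows 9 genes of rat liver that make serine or carry its one-carbon unit on folate, chosen by name from the 17168 genes of the deposited expression tables. They are Phgdh, Psat1 and Psph, which make serine from the glycolytic intermediate 3-phosphoglycerate, and Shmt1 and Shmt2, which split serine into glycine and a folate-bound carbon. The others are Mthfd1 and Mthfd2, which interconvert the oxidation states of that carbon, and Aldh1l1 and Aldh1l2, which release it as carbon dioxide. The liver RNA came from Sprague Dawley rats aged 20 weeks, and 16 poly(A)-selected libraries fall into 4 groups of 4. These are Tspo -/- rats on a methionine-choline deficient (MCD) diet, wild-type rats on MCD, Tspo -/- rats on chow and wild-type rats on chow. The diets were given for 8 weeks from 12 weeks of age. Tspo encodes translocator protein, a cholesterol-binding protein of mitochondria, and the MCD diet is used to induce steatohepatitis, a fatty and inflamed liver. How the Tspo allele was made was not stated in the sources used here, and the series title speaks of mice where every organism label is rat.

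Serine is the main donor of one-carbon units to folate, and the reactions run in parallel in the cytosol (Shmt1, Mthfd1, Aldh1l1) and in mitochondria (Shmt2, Mthfd2, Aldh1l2). The carbon carried on folate is spent on purines, thymidylate and the remethylation of homocysteine to methionine. Adult liver can also draw serine from blood or make it from glycine, and Mthfd2 is best known from embryonic, dividing and tumour cells. Betaine, which is made from choline, is also a methyl donor for the remethylation of homocysteine. A diet without methionine and choline lacks that source of betaine.

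Library totals were 8745756 to 15762650 counts. The unit of level is CPM after scaling each library by its TMM factor, which takes most genes as equal between libraries. The targeted gene Tspo lay at 1.02 to 4.17 CPM in knockout and 7.63 to 9.33 CPM in wild-type libraries on MCD, and at 0.656 to 4.42 CPM in knockout and 3.61 to 5.23 CPM in wild-type libraries on chow. The library labelled knockout on chow number 4 (4.42 CPM) lay within the chow-fed wild-type range, and the library labelled knockout on MCD number 1 (4.17 CPM) lay between the genotypes. These libraries and wild type on chow number 4 also had the highest scores on the second principal component (63.7, 44.2 and 33), and are called below the 3 libraries that stood apart. The other 13 libraries had scores of -43.2 to 9.1, with the other 3 wild-type chow libraries at -43.2 to -24.8, so wild type on chow number 4 lay on the other side of 0 from its group. Directions given for the knockout rest on groups that hold the libraries with doubted Tspo. Calls of the 9 enzymes that change without the libraries that stood apart are given with and without them. No label states that each library is a different animal, so the p-values describe library-to-library spread, which may be technical. In bulk tissue, fewer cells of a type and less RNA per cell cannot be told apart.

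The first question was what the MCD diet did to the 9 enzymes. On MCD, Phgdh, Psat1 and Mthfd2 were higher in both genotypes, by 30.4-fold, 5.54-fold and 4.74-fold in the mean CPM of the knockout and by 7.02-fold, 6.62-fold and 4.36-fold in that of the wild type. The third enzyme of serine synthesis, Psph, did not rise with the first pair. Of the 9 enzymes, 3 rose and 4 fell in the knockout, and 3 rose and 0 fell in the wild type. Across all genes tested 40.4% were called in the knockout (21.9% higher and 18.5% lower) and 34.1% in the wild type (18.2% higher and 15.9% lower). With unscaled values, which put the median gene at 0.765 in the knockout and 0.528 in the wild type, 4 of the 9 were called in the knockout, all higher (Phgdh, Psat1, Mthfd1 and Mthfd2); Mthfd1 was then called higher in the wild type too (0.65, adjusted p = 0.0242), and the signs of Psph, Shmt1 and Shmt2 turned positive in both genotypes. The median log2 fold of the 9 was -0.43 in the knockout and -0.06 in the wild type, against 0.04 and -0.00 over all genes tested. Calls are at an adjusted p under 0.05 from edgeR's quasi-likelihood test with Benjamini-Hochberg adjustment over 11162 genes.

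**Figure D1:**
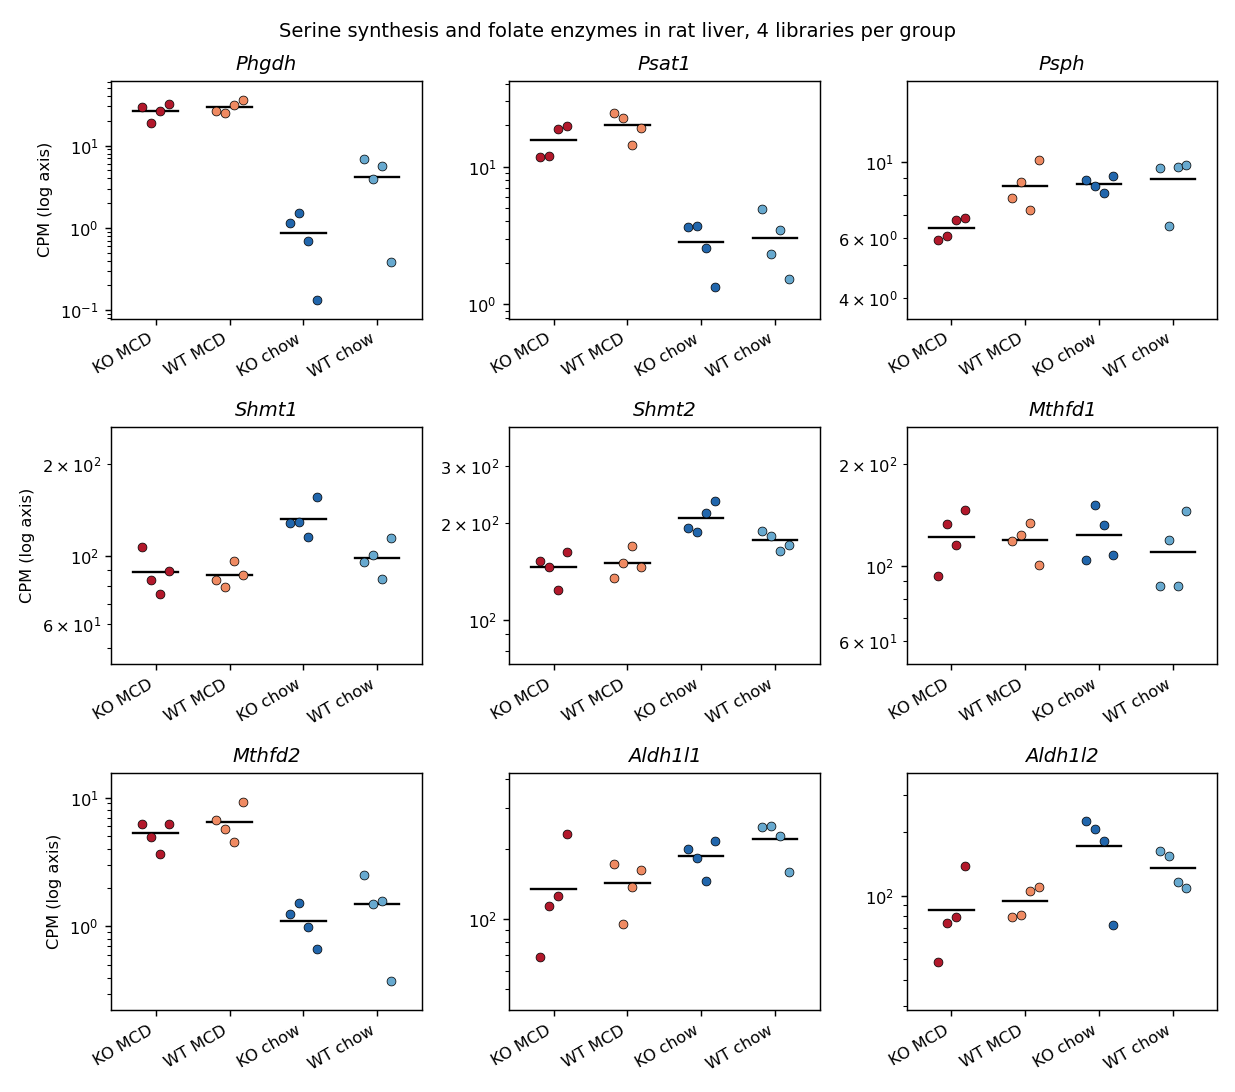
Levels of the 9 enzymes in each library, in CPM on a log axis, with 4 libraries per group as points and the group mean as a bar. For Phgdh, Psat1 and Mthfd2 all 8 MCD libraries lie above all 8 chow libraries, while Mthfd1 overlaps between all groups.

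The promoters of the 3 enzymes that rose in both genotypes, and that of Shmt2 for comparison, are printed here as the 250 bases before the annotated start of each gene, 5′ to 3′ on the gene's strand. They come from RefSeq on the GRCr8 build, which differs from the rn6 build of the expression tables. They lie at chr2:188624790-188625039 (Phgdh), chr1:222645409-222645658 (Psat1), chr4:117380351-117380600 (Mthfd2) and chr7:65249568-65249817 (Shmt2), each on the minus strand. Capitals mark CCAAT boxes, read on either strand.
Phgdh: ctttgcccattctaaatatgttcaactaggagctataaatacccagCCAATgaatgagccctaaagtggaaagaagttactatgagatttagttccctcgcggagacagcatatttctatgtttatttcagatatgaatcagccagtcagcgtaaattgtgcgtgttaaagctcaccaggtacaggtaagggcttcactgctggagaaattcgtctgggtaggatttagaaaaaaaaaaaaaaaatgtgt
Psat1: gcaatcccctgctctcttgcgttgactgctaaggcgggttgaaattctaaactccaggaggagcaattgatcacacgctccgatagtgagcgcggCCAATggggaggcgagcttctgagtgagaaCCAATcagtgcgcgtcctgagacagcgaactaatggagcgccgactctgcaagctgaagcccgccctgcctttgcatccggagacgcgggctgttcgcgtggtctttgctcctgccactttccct
Mthfd2: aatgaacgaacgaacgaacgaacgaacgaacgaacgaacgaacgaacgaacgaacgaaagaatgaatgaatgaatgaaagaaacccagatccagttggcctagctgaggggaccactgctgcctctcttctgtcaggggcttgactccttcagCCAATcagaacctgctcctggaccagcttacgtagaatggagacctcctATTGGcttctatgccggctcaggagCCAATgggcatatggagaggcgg
Shmt2: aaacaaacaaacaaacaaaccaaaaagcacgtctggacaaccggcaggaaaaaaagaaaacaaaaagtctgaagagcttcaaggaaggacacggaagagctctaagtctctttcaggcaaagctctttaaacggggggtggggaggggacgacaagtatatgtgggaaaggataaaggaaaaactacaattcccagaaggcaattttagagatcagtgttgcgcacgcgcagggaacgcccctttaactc

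Promoters were matched for 7 of the 9 enzymes; Mthfd1 and Aldh1l2 are named only. The letters CCAAT occurred once in the Phgdh window, at 2 places in that of Psat1 and at 3 places in that of Mthfd2. They also occurred at 1 place for Shmt1 and at 2 for Aldh1l1, which did not rise, and at 0 for Psph and Shmt2. Of 33469 rat promoters of the same length 34% held this motif, so its presence is common. The E-box CACGTG was found at 2 places for Shmt1 and at 0 in the other 6 windows, against 5.59% of all promoters. Neither TGATGNAA, an ATF4-type element (3.4% of all promoters), nor TGACNNNGC, the core of the antioxidant response element (10.1%), was found in any of the 7 windows on either strand. The matches found did not overlap one another.

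Phgdh encodes phosphoglycerate dehydrogenase, which commits 3-phosphoglycerate to serine synthesis. It stood at 29.2, 18.8, 26.0 and 32.2 CPM in the 4 knockout libraries on MCD and at 26.4, 24.6, 31.0 and 35.8 CPM in the wild-type libraries on MCD. On chow it was at 1.14, 1.53, 0.693 and 0.134 CPM in the knockout, from counts of 10, 14, 7 and 1, and at 6.86, 3.90, 5.63 and 0.381 CPM in the wild type, from counts of 74, 42, 39 and 4. Every MCD library lay above every chow library of either genotype. The lowest chow value of each genotype was in library number 4, one of those that stood apart. The log2 fold of MCD over chow was 4.88 ± 0.58 (SE) in the knockout (edgeR adjusted p = 2.00e-05) and 2.82 ± 0.48 in the wild type (adjusted p = 0.000462). Without the 3 libraries that stood apart these values were 4.52 (adjusted p = 3.00e-07) and 2.43 (adjusted p = 3.31e-06). The knockout fold rests on chow counts of 14 or fewer per library, so its size is less certain than its direction.

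Psat1 encodes phosphoserine aminotransferase, the second step, which takes its amino group from glutamate. It was at 11.8, 12.0, 18.7 and 19.9 CPM in knockout and 24.7, 22.7, 14.5 and 19.0 CPM in wild-type livers on MCD. On chow it was at 3.63, 3.72, 2.57 and 1.34 CPM in knockout and 4.91, 2.32, 3.47 and 1.52 CPM in wild-type livers. As for Phgdh, each MCD library exceeded each chow library and both number 4 libraries were the lowest on chow. The log2 fold was 2.45 ± 0.34 in the knockout (edgeR adjusted p = 7.86e-05) and 2.73 ± 0.34 in the wild type (adjusted p = 3.90e-05).

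Psph encodes phosphoserine phosphatase, the last step, which removes the phosphate to give free serine. It was at 5.91, 6.07, 6.77 and 6.85 CPM in knockout and 7.87, 8.75, 7.22 and 10.2 CPM in wild-type livers on MCD. On chow it was at 8.86, 8.53, 8.12 and 9.11 CPM in knockout and 9.64, 6.51, 9.68 and 9.80 CPM in wild-type livers. The knockout libraries on MCD lay below all knockout libraries on chow, while the wild-type groups overlapped. The log2 fold was -0.43 ± 0.16 in the knockout (edgeR adjusted p = 0.0453) and -0.06 ± 0.16 in the wild type (adjusted p = 0.789). The knockout call was lost in each of the 8 fits that left out 1 library (adjusted p of 0.0584 to 0.107), and in 8 of 11 other alternatives, and with unscaled values the sign turned (0.30). Without the 3 libraries that stood apart the knockout value was -0.37 (edgeR adjusted p = 0.0963). The 95% interval of the wild-type log2 fold ran from -0.42 to 0.29, which lies below the folds of Phgdh and Psat1.

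**Figure D2:**
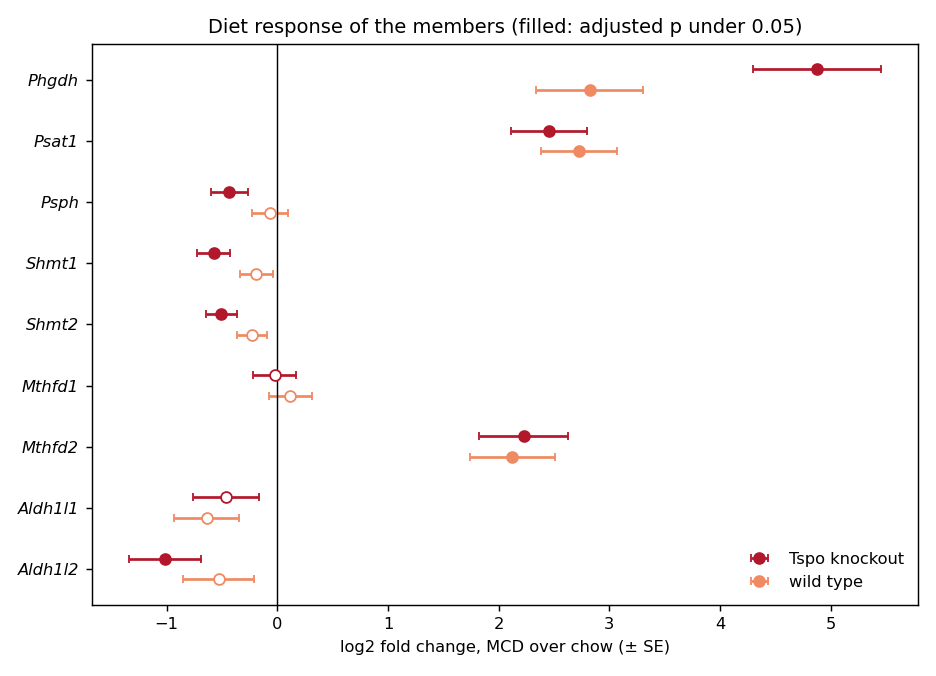
Log2 fold change of MCD over chow for each enzyme in the knockout (above) and the wild type (below), with bars of 1 standard error and filled points where the adjusted p was under 0.05. Phgdh, Psat1 and Mthfd2 lie between 2.12 and 4.88 in both genotypes, and the other 6 lie between -1.01 and 0.12; with unscaled values the signs of Psph, Shmt1 and Shmt2 turn positive.

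The serine hydroxymethyltransferases form the branch point between serine and folate. Shmt1, the cytosolic enzyme, was at 107, 83.4, 75.3 and 89.7 CPM in knockout and 83.5, 79.5, 96.5 and 86.6 CPM in wild-type livers on MCD. On chow Shmt1 was at 129, 129, 115 and 156 CPM in knockout and 95.6, 100.8, 84.2 and 115 CPM in wild-type livers. The knockout diets did not overlap and the wild-type diets did. The log2 fold of Shmt1 was -0.57 ± 0.15 in the knockout (edgeR adjusted p = 0.00683) and -0.19 ± 0.15 in the wild type (adjusted p = 0.329).

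Shmt2, the mitochondrial enzyme and in many cells the larger source of one-carbon units, was at 152, 146, 124 and 162 CPM in knockout and 135, 150, 170 and 146 CPM in wild-type livers on MCD. On chow Shmt2 was at 193, 187, 214 and 234 CPM in knockout and 188, 183, 164 and 171 CPM in wild-type livers. Here too the knockout diets were apart, and in the wild type only 1 MCD library (170 CPM) reached into the chow range. The log2 fold of Shmt2 was -0.51 ± 0.14 in the knockout (edgeR adjusted p = 0.00847) and -0.23 ± 0.14 in the wild type (adjusted p = 0.198). With unscaled values the log2 folds in knockout and wild type were 0.16 and 0.34 for Shmt1 and 0.22 and 0.29 for Shmt2, below the median gene of those values. The falls of both genes are therefore falls relative to the bulk of genes.

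Mthfd1, the trifunctional cytosolic enzyme that makes formyl folate for purine synthesis, was at 93.2, 133, 115 and 146 CPM in knockout and 119, 123, 134 and 100.3 CPM in wild-type livers on MCD. On chow it was at 104, 151, 132 and 108 CPM in knockout and 87.4, 119, 87.1 and 145 CPM in wild-type livers. All 4 groups overlapped. Its log2 fold was -0.02 ± 0.20 in the knockout (95% interval -0.45 to 0.40; edgeR adjusted p = 0.935) and 0.12 ± 0.20 in the wild type (-0.31 to 0.55; adjusted p = 0.668). Its sign in the knockout changed with the scaling and with the libraries kept.

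Mthfd2, the mitochondrial dehydrogenase and cyclohydrolase, was at 6.26, 4.98, 3.64 and 6.18 CPM in knockout and 6.66, 5.68, 4.49 and 9.18 CPM in wild-type livers on MCD. On chow it was at 1.25, 1.53, 0.990 and 0.670 CPM in knockout and 2.50, 1.49, 1.59 and 0.381 CPM in wild-type livers. Each MCD library lay above each chow library, with the lowest chow values again in the number 4 libraries. The log2 fold was 2.23 ± 0.40 in the knockout (edgeR adjusted p = 0.000611) and 2.12 ± 0.39 in the wild type (adjusted p = 0.00075). Chow counts were 5 to 14 per library in the knockout and 4 to 27 in the wild type. The size of these folds is therefore less certain than their direction. For Phgdh, Psat1 and Mthfd2 the direction and the call held in all 114 alternative fits of the diet effect in both genotypes.

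The formyltetrahydrofolate dehydrogenases oxidise the folate-bound carbon and yield NADPH. Aldh1l1, the cytosolic form and an abundant folate enzyme of liver, was at 68.9, 113, 125 and 233 CPM in knockout and 173, 95.6, 137 and 163 CPM in wild-type livers on MCD. On chow Aldh1l1 was at 200.3, 183, 146 and 216 CPM in knockout and 249, 251, 227 and 160 CPM in wild-type livers. The diets overlapped in both genotypes and the knockout libraries on MCD spread the most. Its log2 fold was -0.46 ± 0.29 in the knockout (edgeR adjusted p = 0.217) and -0.64 ± 0.29 in the wild type (adjusted p = 0.102), neither past the threshold. The knockout value became -0.86 (adjusted p = 0.0193) without knockout MCD library number 4, which held the highest value on that diet. Without the 3 libraries that stood apart the knockout value was -0.17 (edgeR adjusted p = 0.613).

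Aldh1l2, the mitochondrial form, was at 48.7, 74.0, 79.4 and 139 CPM in knockout and 79.6, 80.6, 106 and 110 CPM in wild-type livers on MCD. On chow Aldh1l2 was at 226, 207, 182 and 73.0 CPM in knockout and 163, 154, 116 and 108 CPM in wild-type livers. Knockout chow library number 4, which stood apart, lay far below the other 3 of its group and made the diets overlap. The log2 fold was -1.01 ± 0.33 in the knockout (edgeR adjusted p = 0.0212) and -0.53 ± 0.32 in the wild type (adjusted p = 0.211). The knockout call was lost in 4 of the 8 fits that left out 1 library, those without MCD library 2 or 3 or chow library 1 or 2 (adjusted p up to 0.0632). It was also lost with only the groups of the contrast in the fit (adjusted p = 0.0700) and with unscaled values, where the log2 fold was -0.29 (adjusted p = 0.507). Without the 3 libraries that stood apart the knockout value of Aldh1l2 was -1.07 (edgeR adjusted p = 0.00109). In that fit Aldh1l1 and Aldh1l2 also passed the threshold in the wild type, at -0.77 (adjusted p = 0.0155) and -0.62 (adjusted p = 0.0203).

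In all, 6 of the 9 enzymes had no overlap between the diets in the knockout and 3 in the wild type, where 31.6% and 38% of all genes tested had none. The falls of Psph, Shmt1, Shmt2 and Aldh1l2 passed the threshold in the knockout, not in the wild type, but the difference between the genotypes did not pass for any of them. The difference of the diet effects, knockout minus wild type, was -0.37 for Psph, -0.38 for Shmt1, -0.27 for Shmt2 and -0.48 for Aldh1l2, each with an edgeR adjusted p of 1.00. The largest difference among the 9 was that of Phgdh, 2.05 ± 0.74, with an unadjusted p of 0.0134 and an adjusted p of 1.00 (0.0551 without the 3 libraries that stood apart). EdgeR called 0 of the 9 enzymes and 0% of all genes for this difference, with 1 of the 9 and 330 of all genes at an unadjusted p under 0.05, and DESeq2 also called 0 of the 9.

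The loss of Tspo was compared on each diet. Tspo itself, the targeted gene, was not called on either diet. Its log2 fold between knockout and wild type was -2.07 ± 0.45 on MCD (edgeR unadjusted p = 0.000291) and -1.23 ± 0.49 on chow (unadjusted p = 0.0229). The absence of a call for an enzyme therefore does not show that its level was equal between the genotypes. On MCD edgeR called 0 of the 9 enzymes between knockout and wild type, where 0% of all genes were called; 1 of the 9 and 81 of all genes had an unadjusted p under 0.05, and DESeq2 called 0 of the 9. That enzyme was Psph, at a mean of 6.40 ± 0.477 CPM in the knockout and 8.50 ± 1.28 CPM in the wild type (SD, n = 4 each; log2 fold -0.41 ± 0.16, unadjusted p = 0.0213, edgeR adjusted p = 1.00). The genotypes did not overlap in Psph on MCD, which held for 0.797% of all genes. Phgdh, the enzyme with the largest diet response, had a log2 fold of -0.15 ± 0.43 between the genotypes on MCD.

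On chow edgeR again called 0 of the 9 between knockout and wild type, where 0.00896% of all genes (1 gene) were called; 2 of the 9 and 1152 of all genes had an unadjusted p under 0.05. Phgdh averaged 0.873 ± 0.600 CPM in the knockout and 4.20 ± 2.82 CPM in the wild type on chow (SD, n = 4 each). The knockout was lower, with a log2 fold of -2.21 ± 0.60, an unadjusted p of 0.00197 and an edgeR adjusted p of 0.396. The highest knockout library (1.53 CPM) lay below 3 wild-type libraries and above wild-type library number 4 (0.381 CPM). The difference in Phgdh passed the threshold with DESeq2 (adjusted p = 0.0489), without the 3 libraries that stood apart (-2.29, adjusted p = 0.00640) and without wild-type chow library number 4 alone (-2.60, adjusted p = 0.00945). This difference did not pass in 9 of 11 alternatives or in 7 of the 8 fits that left out 1 library. Without the 2 libraries with doubted Tspo it was -1.89 (edgeR adjusted p = 0.349). Shmt1 averaged 132 ± 16.9 CPM in the knockout and 98.8 ± 12.7 CPM in the wild type on chow, with no overlap (4.35% of all genes) and a log2 fold of 0.42 ± 0.15 (unadjusted p = 0.0123, edgeR adjusted p = 0.459). Without the 3 libraries that stood apart the Shmt1 value was 0.41 (adjusted p = 0.0567).

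Mitochondrial and cytosolic partners were set against each other within each library, where transcript length cancels between libraries. The ratio of Mthfd2 to Mthfd1 was 0.0447 ± 0.0156 in knockout and 0.0568 ± 0.0249 in wild-type livers on MCD, and 0.00897 ± 0.00259 in knockout and 0.0155 ± 0.0109 in wild-type livers on chow (SD, n = 4 each). Every MCD library exceeded every chow library in this ratio, from 0.0316 upward on MCD and up to 0.0286 on chow. The chow ratios rest on Mthfd2 counts of 27 or fewer per library. The ratio of Shmt2 to Shmt1 was 1.66 ± 0.169 in knockout and 1.74 ± 0.114 in wild-type livers on MCD, and 1.58 ± 0.190 in knockout and 1.80 ± 0.222 in wild-type livers on chow, so the diets overlapped. The ratio of Aldh1l2 to Aldh1l1 in knockout livers was 0.596 to 0.706 on MCD and 1.13, 1.13, 1.25 and 0.338 on chow. In wild-type livers it was 0.459 to 0.843 on MCD and 0.513 to 0.678 on chow. Thus 3 of the 4 chow-fed knockout libraries had ratios above every other library, and the fourth, which stood apart, had the lowest of all. No test was made on these ratios.

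**Figure D3:**
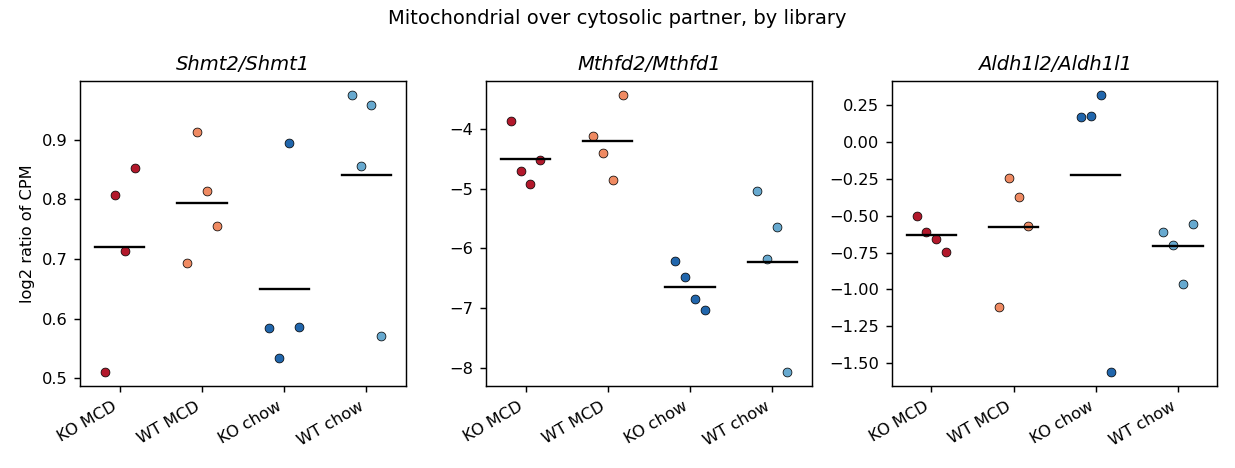
Log2 ratio of the mitochondrial to the cytosolic partner in each library, in CPM without a length correction, with group means as bars; heights can be compared between groups and not between panels. The Mthfd2 to Mthfd1 ratio lies higher in all 8 MCD libraries than in all 8 chow libraries, and 1 chow-fed knockout library falls far below the others in the Aldh1l2 to Aldh1l1 ratio.

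The enzymes were also compared in how they varied around their group means, over 16 libraries that share depth and scaling. Deviations of Phgdh and Mthfd2 had a Pearson r of 0.885, those of Phgdh and Psat1 one of 0.796 and those of Psat1 and Mthfd2 one of 0.704. Over the 13 libraries other than the 3 that stood apart the values were 0.593, 0.622 and 0.521, so a share of this likeness rests on those libraries; the 2 chow libraries among them held the lowest chow values of all 3 genes. Shmt1 and Shmt2 had an r of 0.549 (0.609 over the 13), and Aldh1l1 and Aldh1l2 one of 0.486 (0.749 over the 13). Pairs other than partners had values as high. Psat1 and Aldh1l2 had an r of 0.637 (0.152 over the 13) and Phgdh and Aldh1l2 one of 0.576 (0.569 over the 13). That of Shmt1 and Aldh1l2 was -0.415, but 0.752 over the 13. Psat1 and Shmt1 had an r of -0.669, and of -0.239 over the 13. Psph had values of -0.12 with Phgdh, 0.21 with Psat1, 0.01 with Mthfd2 and -0.26 with Mthfd1 over 16 libraries, but of 0.600, 0.657, 0.582 and -0.722 in that order over the 13, so its likeness to the other enzymes depends on the libraries kept.

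**Figure D4:**
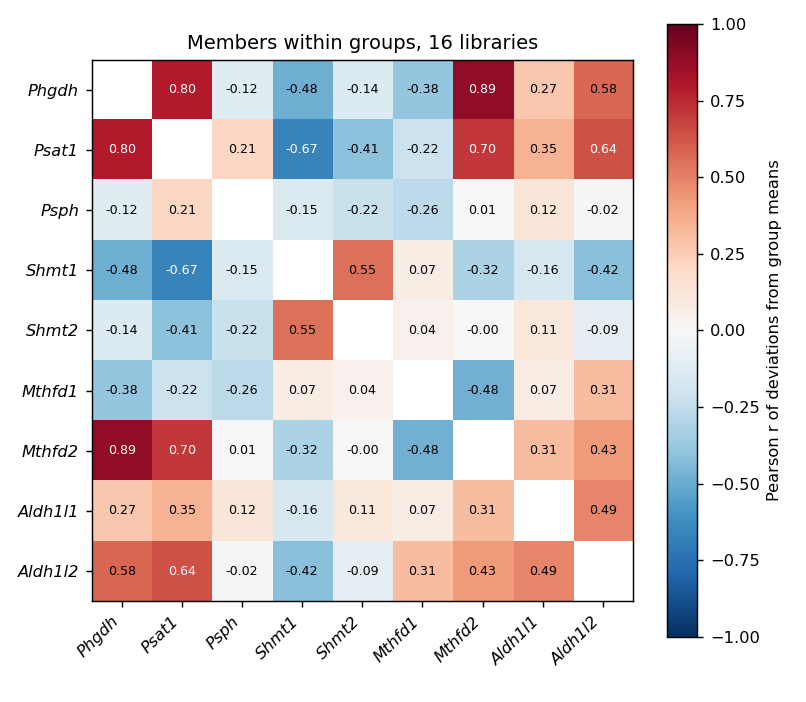
Pearson correlation of the enzymes' deviations from their group means over 16 libraries, in log2 CPM, blue for negative and red for positive. The highest values join Phgdh, Psat1 and Mthfd2 (0.70 to 0.89), and the values of Psph with the other 8 lie between -0.26 and 0.21 here, and between -0.72 and 0.66 over the 13 libraries other than those that stood apart.

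Across all 16 libraries, and so mostly between the diets, Mthfd2 was most like Ccnd1, which encodes the growth-phase cyclin D1 (r = 0.984), Psat1 was most like Paqr8 (0.973) and Phgdh was most like Stmn1, which encodes the microtubule regulator stathmin (0.973). Ccnd1 averaged 186 CPM in knockout and 215 CPM in wild-type livers on MCD, and 64.7 CPM in knockout and 66.9 CPM in wild-type livers on chow. These genes were picked for the highest r among all genes tested, of which 40.4% were called between the diets in the knockout. How many genes reach an r of this size was not counted.

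The rest of the pathway was read from gene lists. Over all genes tested, 21.9% were called higher and 18.5% lower in the knockout, and 18.2% higher and 15.9% lower in the wild type. The counts of this and the later lists are to be read against these shares, and no list was tested as a set. Of 14 tested genes of the folate cycle and folate transport, 4 rose and 5 fell in the knockout and 4 rose and 4 fell in the wild type, with median log2 folds of -0.42 and -0.20. Mthfd1l, which makes formate in mitochondria from the carbon that Mthfd2 passes on, had the largest rise, at 3.53 ± 1.14 CPM in knockout and 3.49 ± 1.76 CPM in wild-type livers on MCD against 0.388 ± 0.118 CPM in knockout and 0.388 ± 0.153 CPM in wild-type livers on chow (log2 folds 3.14 ± 0.46 and 3.15 ± 0.45, edgeR adjusted p = 0.000107 and 0.000114). At so low a chow level the size of the Mthfd1l rise is less certain than its direction. Over 11 alternatives the log2 fold of Mthfd1l ran from 1.68 to 3.86 in the knockout and from 1.62 to 3.68 in the wild type. Tyms, the thymidylate synthase that spends folate carbon on DNA, rose by 1.51 ± 0.16 in the knockout and 2.14 ± 0.17 in the wild type. Ftcd, which feeds carbon from histidine breakdown into folate, had log2 folds of -1.79 ± 0.28 and -1.35 ± 0.27 in knockout and wild type, and the proton-coupled folate carrier Slc46a1 ones of -1.03 ± 0.16 and -1.26 ± 0.16, all called lower. The Slc46a1 call in the knockout was lost with unscaled values (adjusted p = 0.156).

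Another list held genes around glycine cleavage and choline-derived one-carbon units, not all of which supply such units. Of 12 tested, 0 rose and 7 fell in the knockout, and 0 rose and 5 fell in the wild type (median log2 folds -0.74 and -0.27). Bhmt2, a homocysteine methyltransferase that uses S-methylmethionine, was at 261 ± 24.1 CPM in knockout and 264 ± 35.6 CPM in wild-type livers on MCD, against 661 ± 68.5 CPM and 616 ± 91.5 CPM in knockout and wild-type livers on chow (edgeR adjusted p = 2.20e-05 and 5.44e-05). Pipox, the peroxisomal sarcosine oxidase, fell by 1.64 ± 0.33 in the knockout and by 1.97 ± 0.33 in the wild type on the log2 scale. Gcsh, the carrier protein of the glycine cleavage system, fell by 1.03 ± 0.18 and 0.93 ± 0.18, though neither call held with unscaled values. Dmgdh, the dimethylglycine dehydrogenase, fell by 0.77 ± 0.16 in the knockout (adjusted p = 0.00164) and had a log2 fold of -0.29 ± 0.16 in the wild type (adjusted p = 0.170); unscaled, the knockout value of Dmgdh was -0.05 (adjusted p = 0.806).

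Of 13 genes that use serine or glycine, 1 rose and 6 fell in the knockout and 0 rose and 5 fell in the wild type. Cbs, which joins serine to homocysteine, was at 45.3 ± 16.9 CPM in knockout and 42.1 ± 13.1 CPM in wild-type livers on MCD, against 215 ± 22.3 CPM and 218 ± 58.1 CPM in knockout and wild-type livers on chow (edgeR adjusted p = 3.77e-05 and 3.04e-05). Sds, the serine dehydratase that turns serine into pyruvate, was at 2.27 ± 0.928 CPM in knockout and 1.28 ± 0.252 CPM in wild-type livers on MCD, against 48.0 ± 73.6 CPM and 38.4 ± 43.9 CPM in knockout and wild-type livers on chow, where single libraries set much of the mean (adjusted p = 0.00464 and 0.00365). Without the 2 libraries with doubted Tspo the log2 fold of Sds in the knockout was -2.36, against -4.39 with them (adjusted p = 0.0682). Agxt, the alanine-glyoxylate aminotransferase, and Grhpr, which reduces glyoxylate and hydroxypyruvate, fell in both genotypes, the call of Agxt in the knockout being lost with unscaled values (adjusted p = 0.540). Of 10 serine and glycine carriers 3 rose and 2 fell in each genotype, with Slc36a1, a proton-coupled amino acid carrier, rising by 2.22 ± 0.32 in the knockout and 1.55 ± 0.30 in the wild type.

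**Figure D5:**
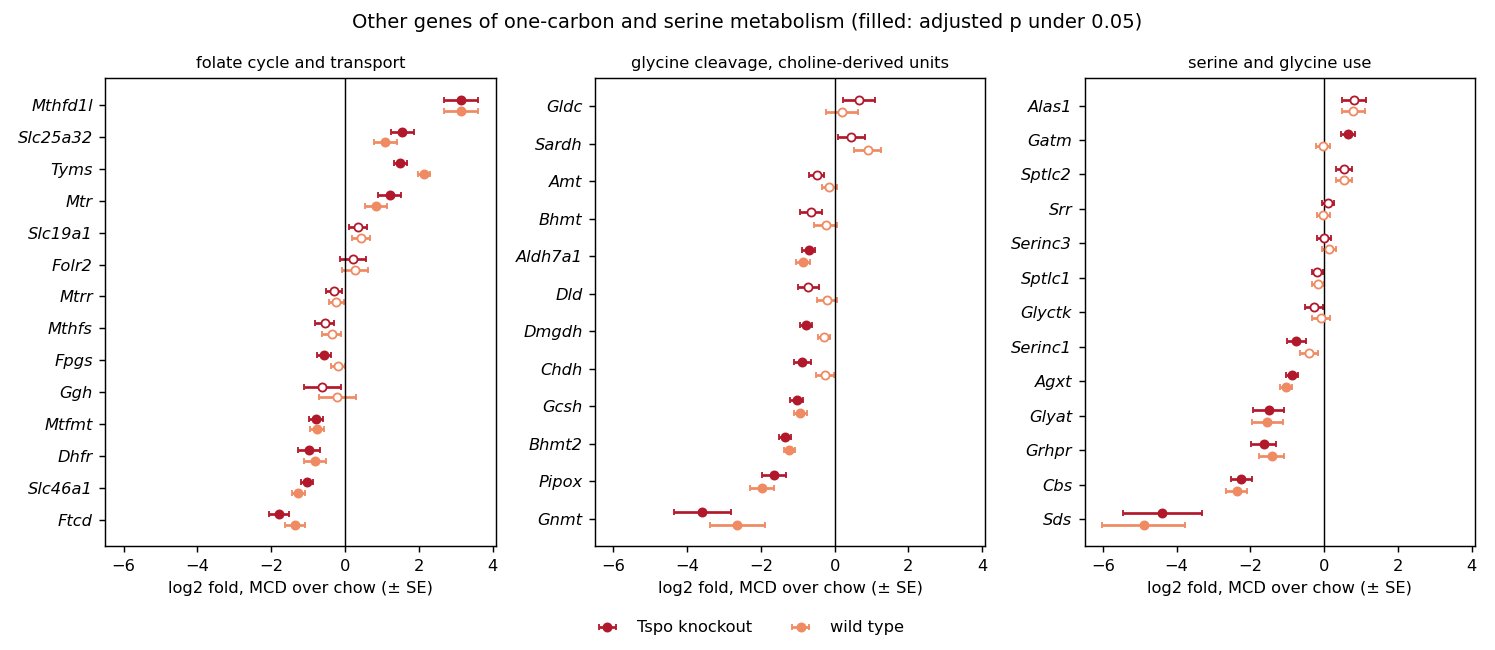
Log2 fold change of MCD over chow for other genes of one-carbon and serine metabolism, in the knockout (above) and the wild type (below), with bars of 1 standard error and filled points where the adjusted p was under 0.05. Mthfd1l leads the folate genes at 3.14 and 3.15, no gene of glycine cleavage and choline-derived units was called higher, and Sds and Cbs lie lowest among the genes that use serine and glycine.

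Phgdh, Psat1 and Mthfd2 are known targets of ATF4, the transcription factor of the amino acid response, and a list of ATF4 and 17 other targets was read beside them. Of these 18 genes 6 rose and 2 fell in the knockout and 7 rose and 0 fell in the wild type (median log2 folds 0.21 and 0.57). Asns, the asparagine synthetase, was at 25.7 ± 8.92 CPM in knockout and 34.1 ± 10.1 CPM in wild-type livers on MCD, against 2.48 ± 1.60 CPM and 2.38 ± 1.48 CPM in knockout and wild-type livers on chow (edgeR adjusted p = 0.000212 and 8.66e-05). Trib3, a pseudokinase, the mitochondrial Pck2 and the translation repressor Eif4ebp1 also rose in both genotypes. The transcript of Atf4 itself, looked up after its values were seen, was called lower on MCD in the knockout only. Its log2 fold was -0.81 ± 0.21 in the knockout (edgeR adjusted p = 0.00689) and -0.50 ± 0.21 in the wild type (adjusted p = 0.0729). Its unscaled value was not examined, and a knockout fall of like size, that of Dmgdh (-0.77), was -0.05 unscaled. The part of ATF4 in the rise of the enzymes was not tested.

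Downstream and upstream of the enzymes, 4 of 11 purine synthesis genes rose in the knockout and 3 in the wild type, with 0 lower in either. Impdh1, the dehydrogenase of guanine nucleotide synthesis, rose by 1.93 ± 0.28 in the knockout and 1.85 ± 0.27 in the wild type, and Pfas, a step of the purine ring, by 1.16 ± 0.21 and 0.65 ± 0.20. Of 12 glycolytic genes around 3-phosphoglycerate 3 rose and 4 fell in the knockout and 3 rose and 3 fell in the wild type. Pklr, the pyruvate kinase of liver, fell in both genotypes, while Pkm, the pyruvate kinase of many other tissues, and Aldoa, an aldolase best known from muscle, rose. The wild-type call of Pklr (adjusted p = 0.0496) was lost in 6 of 11 alternatives, and that of Pfas in the wild type was lost without MCD library 1 or chow library 2 of that genotype.

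Several markers of cell state and cell type moved with the diet alongside Phgdh, Psat1 and Mthfd2. Of 12 genes of DNA replication and mitosis 11 rose in each genotype, with the helicase subunit Mcm6 at 10.2 ± 1.91 CPM in knockout and 8.34 ± 1.77 CPM in wild-type livers on MCD, against 1.58 ± 0.970 CPM and 1.85 ± 0.329 CPM in knockout and wild-type livers on chow. The summed level of 6 bile duct markers was 83.1 to 133 CPM in knockout and 85.8 to 147 CPM in wild-type livers on MCD, and 24.1 to 49.7 CPM in knockout and 30.6 to 53.3 CPM in wild-type livers on chow. The summed level of 8 hepatocyte markers was 105817 to 129744 CPM in knockout and 101518 to 142334 CPM in wild-type livers on MCD, and 180265 to 240457 CPM in knockout and 174333 to 213289 CPM in wild-type livers on chow. Of the 6 bile duct markers 2 rose in each genotype and of the 8 hepatocyte markers 3 fell in each. Alb made up most of the hepatocyte sum, at means of 70913 CPM in knockout and 71539 CPM in wild-type livers on MCD, and 147114 and 125866 CPM on chow. The size of its fall depends on the processing. Over 11 alternatives its log2 fold ran from -1.10 to -0.34 in the knockout and from -0.85 to -0.29 in the wild type. The call of Alb in each genotype, and that of the hepatocyte marker Serpina1 in the knockout, was lost in 1 of those 11. The sums of 7 macrophage markers overlapped between the diets in both genotypes, from 322 to 504 CPM on MCD and from 255 to 489 CPM on chow, while 3 of the 7 rose and 2 fell in each genotype. Gpnmb and Trem2, both known from macrophages that take up lipid, rose by 4.05 and 5.54 in the knockout and 4.57 and 4.90 in the wild type on the log2 scale. Trem2 averaged only 0.135 CPM in knockout and 0.201 CPM in wild-type livers on chow, so the size of its rise is less certain than its direction. Over 11 alternatives its knockout log2 fold ran from 2.71 to 6.18. Marco and Clec4f, markers of resident liver macrophages, had log2 folds of -2.81 and -1.68 in the knockout and -1.64 and -1.51 in the wild type, both called lower, though the wild-type call of Marco was lost in 3 of 11 alternatives. The summed level of 8 pericentral markers was 2969 to 4244 CPM in knockout and 2617 to 3381 CPM in wild-type livers on MCD, and 1000.1 to 1715 CPM in knockout and 1107 to 1764 CPM in wild-type livers on chow. Cyp2e1 made up most of that sum, at means of 3204 CPM in knockout and 2522 CPM in wild-type livers on MCD, and 721 and 846 CPM on chow. Of the 7 pericentral markers tested 4 rose and 1 fell in the knockout and 4 rose and 2 fell in the wild type. Oat was among those that fell, with log2 folds of -3.73 ± 0.38 in the knockout and -3.29 ± 0.37 in the wild type. Of 7 periportal markers 0 rose in either genotype, and 5 fell in the knockout and 6 in the wild type. All 5 red blood cell genes tested fell in each genotype, with median log2 folds of -3.30 and -2.78 in knockout and wild type. No marker of these lists was at 0 in all libraries. The part of these shifts in the levels of the 9 enzymes was not tested.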

How the data were processed

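Poly(A) RNA of rat liver was sequenced from stranded libraries, per the labels' protocols. One deposited table has the authors' expected counts for each gene; Bowtie2 2.1.0, RSEM 1.2.15 and the rn6 build are listed, without roles, in the submitters' processing notes. The second holds a signal deposited by the authors, CPM scaled by TMM factors, of which 99.92% of values equalled the rounded count times one library-specific constant (relative tolerance 1e-06). Gene annotation and the strand setting of the counting were not stated in the sources used here, so overlapping genes may share reads.

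Expected counts were rounded (88.9% were whole) and tested with edgeR 4.0.16 in R 4.3.3. Its filterByExpr step kept 11162 of 17168 genes, all 9 enzymes among them; it asks for counts in as many libraries as 1 group holds, so a gene low on chow can pass through its MCD libraries. TMM factors, 1 term per group, robust dispersions and the robust quasi-likelihood test gave 5 contrasts, each adjusted by Benjamini-Hochberg over all genes tested. The common biological coefficient of variation was 28.0% with 12 residual degrees of freedom. Log2 CPM for correlations and ratios had a prior count of 2. No library repeats another of its group: chi-square values per gene were at least 15.3 over genes with 20 or more counts. Alternatives used DESeq2 1.42.0, limma 3.58.1 on the deposited signal, other scalings, no filter, other sets of libraries and a replicate block. The scripts were checked on simulated data.

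The enzymes and the gene lists were chosen with earlier results of these data known. From each list up to 4 genes called in either diet contrast with the smallest p are named; likeness between genes is named for the 3 enzymes with the highest r. Atf4 is named outside this rule, and not every gene so chosen is reported here.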

Additional observations from a re-analysis of the deposited data

Results flagged for a closer look

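Among the 36 groups of 4 values (9 enzymes in 4 groups), 1 held a library set apart from its group by a wide gap. Psph in wild-type chow library number 2 was at 6.51 CPM, against 9.64 CPM in the nearest and 9.80 CPM in the highest of the other 3. The gap was 0.952 of the group's range, above Dixon's critical value of 0.829 for groups of this size; chance marks about 1 group in 20. This library was not among the 3 with the highest scores on the second principal component.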

How the results depend on the processing

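The rises of Phgdh, Psat1 and Mthfd2 on MCD kept their direction and call in all 114 alternative fits. With unscaled values the 7 enzymes called in the knockout became 4 (6853 against 4514 of all genes), and log2 folds changed sign for Psph (0.30 in the knockout, 0.48 in the wild type), Shmt1 (0.16 and 0.34) and Shmt2 (0.22 and 0.29) in both genotypes and for Mthfd1 (0.69) and Aldh1l1 (0.31) in the knockout. Mthfd1 in the knockout was also above 0 with upper quartile factors (0.078), without the 3 libraries that stood apart (0.0242) and without the 2 with doubted Tspo (0.0240), and ranged from -0.12 to 0.0873 when 1 library was left out; Psph in the wild type ranged from -0.19 to 0.00928. In the wild type 5 enzymes rather than 3 were called with only the groups of the contrast, without those 3 libraries and without those 2, the added ones being Aldh1l1 and Aldh1l2, and 4 unscaled, the added one being Mthfd1. Between genotypes on chow, 1 enzyme (Phgdh) rather than 0 was called with DESeq2 and without the 3 libraries, and 0 to 1 when 1 library was left out; the cause was not tested. For that contrast the call count over all genes was 1, against 0 with only its own groups, 2 unscaled and with limma, 4 without the 2 libraries, 23 with DESeq2 and 516 without the 3, and 0 to 17 with 1 library left out. On MCD 0 genes were called between genotypes, against 1 without the 3, without the 2 or without knockout MCD library 3. For the difference of the diet effects it was 0, against 1 with DESeq2 or without the 2 and 20 without the 3. With 1 library left out 5 to 7 enzymes were called in the knockout.

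Replicate numbers did not in general pair the libraries: deviations of same-numbered libraries had a median correlation of 0.036, with 7 of 24 pairs over 0.1. Libraries with different numbers had a median of 0.008, with 28 of 72 pairs over 0.1. The chow libraries number 4 of both genotypes had a correlation of 0.511. That of knockout chow library number 4 with knockout MCD library number 1 was 0.534. With the replicate number as a block 6 enzymes were called in the knockout (Psph lost, adjusted p = 0.0537) and 3 in the wild type. Depth limits Phgdh on chow, with 1 to 14 counts per knockout library. It also limits Mthfd2 on chow, with 5 to 14 counts per knockout library and 4 to 27 per wild-type library.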
